A study of Mus musculus with 4 samples.

Results

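The 42 genes described here encode proteins of mitosis: the kinases and regulators that start it, the kinetochore and its checkpoint, the chromosome, spindle and cytokinesis machinery, and the factors that end it. They were the rows of the count table whose gene name equals a name on a list of 42, out of 32285 genes in the table. All 42 were found, and all passed the filter on low counts, which kept 16005 genes. The libraries came from GS cells, spermatogonia kept in culture, which had been established from testes of mice aged 10 days. The 129 group had 2 libraries, from wild-type cells of strain 129, and the B6 group had 2 libraries, from wild-type cells of strain C57BL/6. The B6 titles carry the term F0, which the 129 titles lack and the labels do not explain. The labels do not name the substrain of 129. They also do not say that replicates were separate animals or cultures, so the p-values reflect only how far these samples spread, and that spread may be technical. RNA was read as stranded mRNA libraries with single reads of 76 bp. The libraries held 20798809 and 20375086 counts in 129 and 25374801 and 20488618 counts in B6, and the least abundant member in any library still had 275 counts.

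In a dividing cell these genes are switched on late in the cycle, in a wave that follows DNA replication. Condensin and topoisomerase II compact and untangle the chromosomes, kinetochores built on centromeres attach them to spindle microtubules, and the spindle assembly checkpoint holds back the anaphase promoting complex until every chromosome is attached. That complex then marks securin and cyclin B for destruction, which frees separase to split the sister chromatids, and the central spindle directs cytokinesis. Spermatogonia divide by mitosis, and the expansion of GS cells in culture rests on the same division. Many promoters of this wave carry a hexamer called the cell cycle genes homology region, which the MuvB complex binds together with B-MYB and FOXM1, and CCAAT boxes, which NF-Y binds.

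Promoter sequences are shown first, because late cell cycle promoters are known to share short motifs. RefSeq (GRCm38.p6) gave a window from 250 bases before to 50 bases after the start for 34 of the 42 genes. Cdc25c, Foxm1, Smc4, Aurkb, Incenp, Spc24, Tpx2 and Kif20a had no entry. The windows were searched on both strands for TTTGAA or TTCGAA (the homology region, of which TTCGAA is its own reverse complement), for CCAAT, and for the E2F octamers TTTGGCGC, TTTCCCGC, TTTCGCGC and TTTGCCGC. TTTGAA or TTCGAA was in 27 of the 34 member windows (79.4%), against 19.4% of all 27025 windows and 13.9% of the 12251 windows of tested genes. CCAAT was in 24 member windows (70.6%), against 37.9% of all windows and 39.0% of those of tested genes. An E2F octamer was in 1 member window, that of Ncapg (2.9%), against 2.3% of all windows and 3.9% of those of tested genes. A CCAAT starting up to 60 bases before a TTTGAA or TTCGAA was in 18 member windows (52.9%), against 2.2% of all windows. A match describes the letters only, and no relation between the motifs and the strain difference was tested.

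The 200 bases before the RefSeq start are given below, 5′ to 3′ on the gene's strand, for the 3 members that passed the test (Mki67, Top2a and Cenpf) and for 3 others, Ncapg, Kif11 and Cdc20, that show the hexamer before the start. Capitals mark the hexamers and the CCAAT boxes, on either strand. The windows are chr7:135716380-135716579 (minus strand), chr11:99024190-99024389 (minus), chr1:189688087-189688286 (minus), chr5:45669725-45669924 (plus), chr19:37376182-37376381 (plus) and chr4:118437344-118437543 (minus), in that order.
Mki67: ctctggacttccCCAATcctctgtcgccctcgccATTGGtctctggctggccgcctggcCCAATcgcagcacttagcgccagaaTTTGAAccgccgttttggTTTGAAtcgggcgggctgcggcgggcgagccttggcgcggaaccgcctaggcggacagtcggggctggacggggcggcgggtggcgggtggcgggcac
Top2a: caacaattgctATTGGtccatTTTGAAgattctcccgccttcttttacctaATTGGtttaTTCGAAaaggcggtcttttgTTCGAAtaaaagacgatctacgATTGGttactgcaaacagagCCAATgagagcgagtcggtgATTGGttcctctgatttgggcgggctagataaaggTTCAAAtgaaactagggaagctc
Cenpf: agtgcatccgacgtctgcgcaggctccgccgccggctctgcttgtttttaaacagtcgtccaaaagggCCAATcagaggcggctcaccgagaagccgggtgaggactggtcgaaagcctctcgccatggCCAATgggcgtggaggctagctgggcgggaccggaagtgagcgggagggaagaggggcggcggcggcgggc
Ncapg: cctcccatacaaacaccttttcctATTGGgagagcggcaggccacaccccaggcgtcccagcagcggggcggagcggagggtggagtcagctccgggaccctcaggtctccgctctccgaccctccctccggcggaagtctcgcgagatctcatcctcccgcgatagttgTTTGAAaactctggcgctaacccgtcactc
Kif11: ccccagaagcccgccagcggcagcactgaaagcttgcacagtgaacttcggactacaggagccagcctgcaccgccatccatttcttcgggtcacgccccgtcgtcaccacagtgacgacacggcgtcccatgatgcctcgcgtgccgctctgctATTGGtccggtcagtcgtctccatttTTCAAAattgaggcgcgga
Cdc20: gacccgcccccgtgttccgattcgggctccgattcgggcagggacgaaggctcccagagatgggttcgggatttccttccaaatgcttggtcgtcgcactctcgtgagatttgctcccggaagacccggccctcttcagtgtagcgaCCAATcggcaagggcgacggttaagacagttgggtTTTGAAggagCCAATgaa
Top2a held the most capitals, with hexamers and CCAAT boxes spread along the window. Cenpf showed CCAAT boxes only in this stretch, since its hexamer lay just past the start. In Kif11 and Cdc20 a CCAAT box stood shortly before the hexamer, both read on the reverse strand in Kif11.

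Summed over the 42 genes, mitotic expression was lower in both 129 libraries than in both B6 libraries. The 42 genes together took 4219 and 5297 CPM (counts scaled to the size of each library) in the 129 libraries, against 6905 and 7052 CPM in the B6 libraries. Their sum averaged 4758 ± 762 CPM in 129 and 6978 ± 104 CPM in B6 (SD, n = 2 each), a ratio of 0.682. The log2 fold change of 129 over B6 was below 0 in 38 of the 42 genes, with a median of -0.47, against 49.1% of all genes tested, whose median was 0.015. Both 129 libraries lay below both B6 libraries in 30 genes (71.4%), against 29.2% of all genes tested, and above both in 3 genes (Foxm1, Cdc25b and Spc24), against 31.0% of all genes. These genes are transcribed together in dividing cells and are not independent observations of each other.

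Single genes passed the test across all genes in 3 cases, all lower in 129. In the quasi-likelihood test of edgeR, with p-values adjusted over the 16005 genes by the Benjamini-Hochberg method and a threshold of 0.05, Mki67, Top2a and Cenpf fell and the other 39 did not pass. That is 3 of 42 lower, where 1.02% of all genes tested were called lower and 2.86% were called in either direction. At an unadjusted p under 0.05, 19 members were lower and 1 was higher, against 12.2% and 15.9% of all genes. DESeq2 called 9 members lower, against 5.44% of the genes it tested, and limma-voom called 1, against 0.606% of all genes. The adjusted p of the 3 calls lay between 0.034 and 0.049. With a library left out, 1 strain holds a single library, so whether the 3 calls hold cannot be judged. The median log2 fold change of the members was -0.32 without 129 replicate 1 and -0.64 without 129 replicate 2. It was -0.49 without B6 replicate 1 and -0.47 without B6 replicate 2. An exact permutation test of 2 libraries against 2 cannot go below p = 0.333 for a single value.

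**Figure D1:**
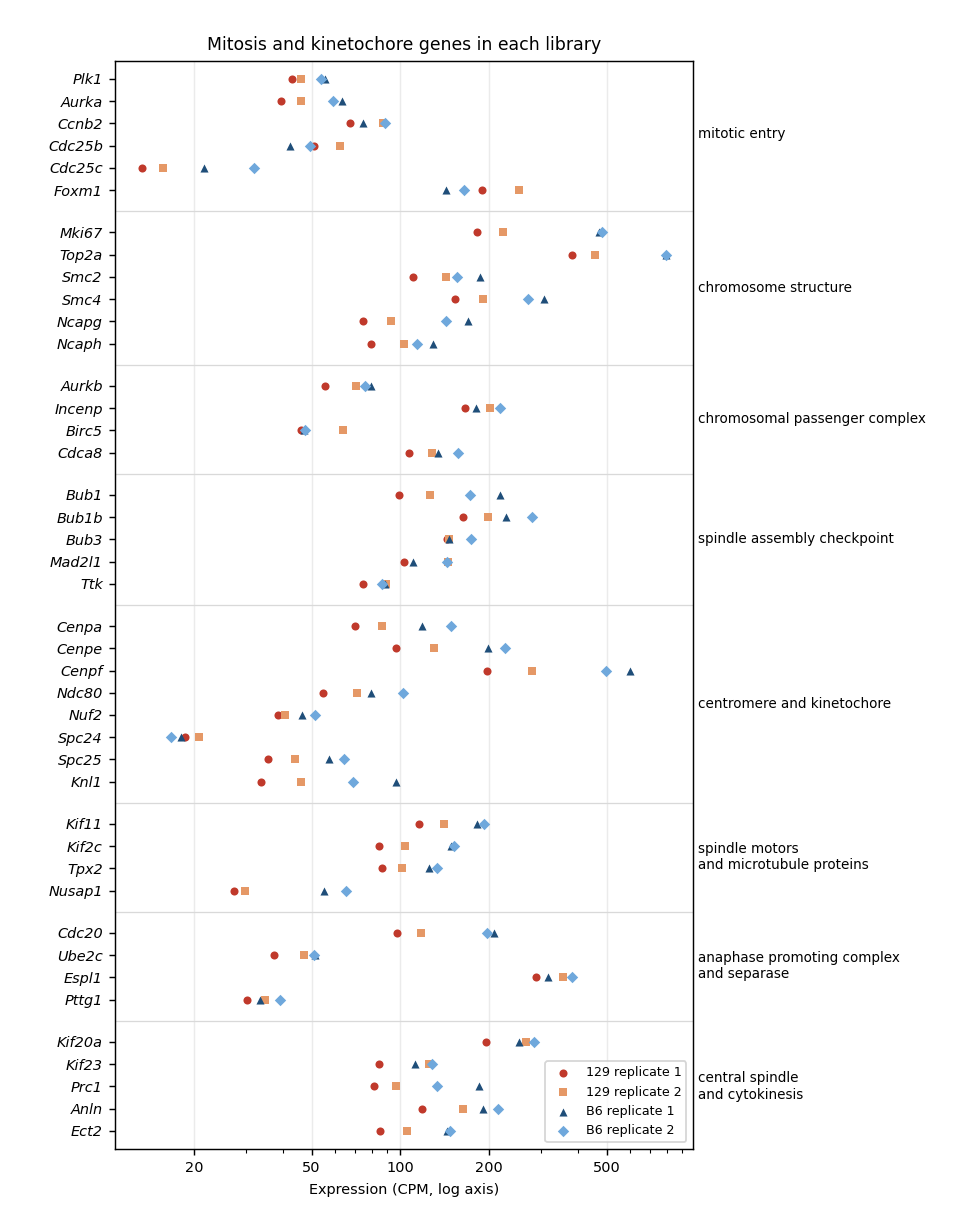
Expression of each of the 42 genes in CPM on a log axis, with 1 point per library (circles and squares for 129, triangles and diamonds for B6), grouped by role. In 30 genes both 129 points lie left of both B6 points, and Foxm1, Cdc25b and Spc24 show the opposite order.

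**Figure D2:**
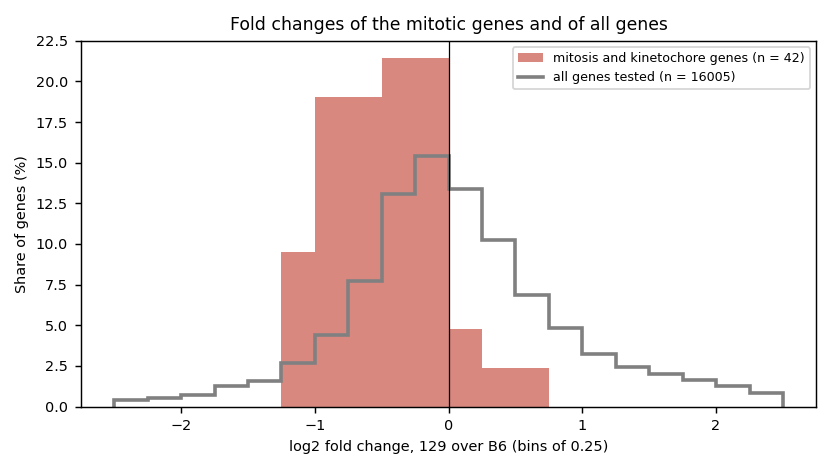
Share of genes (%) in bins of 0.25 of the log2 fold change of 129 over B6, for the 42 mitosis and kinetochore genes (filled) and for the 16005 genes tested (outline), drawn between -2.5 and 2.5, which leaves out 5.46% of the genes tested. The mitotic genes lie mostly left of 0, with a median of -0.47 against 0.015 for all genes.

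The 129 libraries also differed from each other, and in the same direction for every member. All 42 genes were lower in 129 replicate 1 than in 129 replicate 2, against 50.5% of all genes tested, with a median log2 ratio of -0.30. The other lists of dividing and germ cells had the same order, in 39 of 40 DNA replication genes, 14 of 15 spermatogonial markers and 102 of 119 other mitotic genes. Between the B6 libraries, replicate 1 was lower in 26 genes, against 50.1% of all genes, with a median log2 ratio of -0.086. The summed level of 18 fibroblast markers was 8717 and 3473 CPM in 129 and 7116 and 4885 CPM in B6, higher in replicate 1 of each strain. None of these markers was at 0 in any library, and collagens and fibronectin were among them. The summed level of 15 spermatogonial markers was 2996 and 3898 CPM in 129, against 4311 and 4559 CPM in B6. The highest fibroblast sum, in 129 replicate 1, rested on fibronectin (Fn1, singled out after its values were seen), which had 4067 and 1667 CPM in 129 and 1775 and 1274 CPM in B6. Without Fn1 the sum was 4649 and 1806 CPM in 129 and 5341 and 3612 CPM in B6, highest in B6 replicate 1. Between strains, 9 of the 18 fibroblast markers had a log2 fold change below 0 and 9 above. The 129 library with the lowest mitotic sum also had the lowest spermatogonial sum, and the part of these markers in the strain difference was not tested. Without 129 replicate 1 the ratio of the mitotic sums was 0.759, and without 129 replicate 2 it was 0.605. Divided by the spermatogonial marker sum of the same library, the mitotic sum was 1.41 and 1.36 in 129, against 1.60 and 1.55 in B6. Of those 15 markers, Tex19.1 and Uchl1 fell and Etv5 rose in 129 (edgeR, adjusted p under the threshold). Of all genes tested, 1.02% were called lower and 1.84% higher. In bulk RNA, fewer cells of a type and less RNA per cell cannot be told apart.

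**Figure D3:**
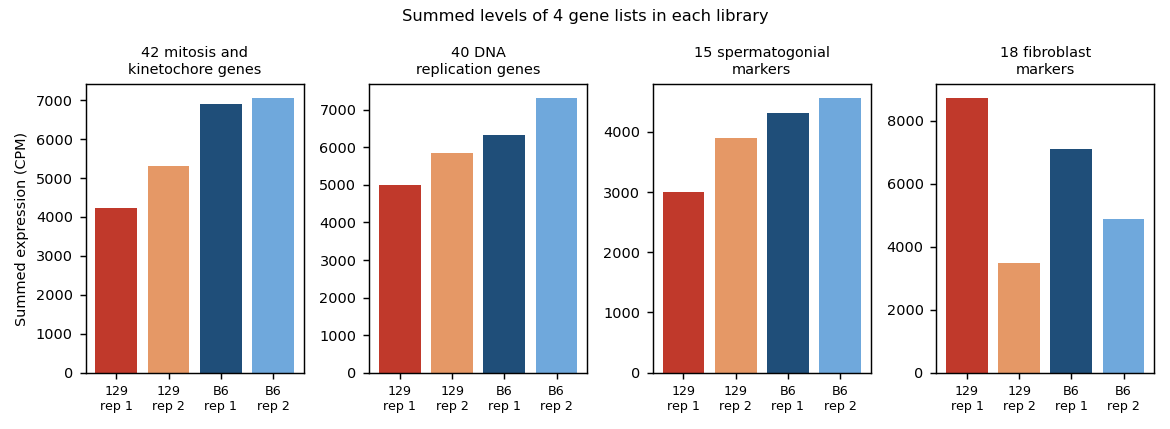
Summed expression (CPM) in each library, 129 left of B6, of the 42 mitosis and kinetochore genes, 40 DNA replication genes, 15 spermatogonial markers and 18 fibroblast markers. The mitotic sum is lowest in 129 replicate 1 (4219 CPM) and highest in B6 replicate 2 (7052 CPM), while the fibroblast sum is highest in 129 replicate 1 (8717 CPM), of which Fn1 makes up 4067 CPM.

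General germ cell markers were detected in all 4 libraries. Ddx4, an RNA helicase of germ cells, was at 276 and 379 CPM in 129, against 517 and 454 CPM in B6, and Dazl, an RNA-binding protein of germ cells, at 635 and 832 CPM in 129, against 1052 and 1010 CPM in B6. Of the 15 spermatogonial markers, 12 had a log2 fold change below 0 and 3, Gfra1, Ret and Etv5, above. Ret had 529 and 644 CPM in 129, against 147 and 362 CPM in B6. Etv5 had 202 and 234 CPM in 129, against 59.2 and 80.4 CPM in B6. Nanos2 was scarce, at 2.71 and 4.46 CPM in 129, against 10.3 and 21.3 CPM in B6. Leydig markers summed to 4.44 to 9.24 CPM and macrophage markers to 19.4 to 51.0 CPM over the 4 libraries. The Sertoli sum was 221 and 130 CPM in 129, against 20.2 and 24.0 CPM in B6, the endothelial sum 204 and 86.9 CPM in 129, against 24.9 and 23.8 CPM in B6, and the peritubular sum 92.2 and 39.9 CPM in 129, against 80.5 and 23.4 CPM in B6. All 8 Sertoli markers tested had a log2 fold change above 0 (median 1.36). In 6 of them, Sox9, Wt1, Amh, Gata4, Clu and Dhh, both 129 libraries lay above both B6 libraries, against 31.0% of all genes tested. edgeR called 1 of the 8, Clu, higher, against 1.84% of all genes tested. Clu made up most of the sum in 129 at 193 and 90.5 CPM, against 3.78 and 10.1 CPM in B6. Amh was at 0.676 and 0.474 CPM in 129, against 0.121 and 0.149 CPM in B6, and Fshr, which was not tested, had 0 counts in both 129 libraries and 1 and 0 counts in B6. Of the 6 endothelial markers tested, edgeR called 2 higher in 129, Cdh5 and Eng, against 1.84% of all genes tested. Cdh5 and Eng made up most of the sum in 129. Cdh5 averaged 57.4 CPM in 129, against 1.67 CPM in B6, and Eng 64.3 CPM, against 4.87 CPM in B6. Both 129 libraries also lay above both B6 libraries in Kdr, which was not called, and Pecam1, Tek and Vwf overlapped. Of the 5 peritubular markers, edgeR called 1, Des, higher in 129, against 1.84% of all genes tested, and 2 had a log2 fold change below 0. The part of these markers in the results was not tested.

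Chromosome structure genes were lower in 129 without exception among the 6. Both 129 libraries lay below both B6 libraries in each, against 29.2% of all genes tested. Mki67 (ENSMUSG00000031004, mm10 chr7:135689784-135716361, minus strand), which coats mitotic chromosomes and marks cycling cells, had 182 and 223 CPM in the 129 libraries, against 470 and 484 CPM in the B6 libraries. Its groups lay far apart, and it fell by 1.23 on the log2 scale (SE 0.18, edgeR adjusted p = 0.034). The log2 fold change of Mki67 was -1.09 without 129 replicate 1 and -1.39 without 129 replicate 2. It was -1.26 without B6 replicate 1 and -1.26 without B6 replicate 2. Top2a (ENSMUSG00000020914, chr11:98992943-99024189, minus strand), the topoisomerase that untangles sister DNA, had 382 and 456 CPM in 129, against 797 and 795 CPM in B6. The B6 libraries were nearly equal, and Top2a fell by 0.93 on the log2 scale (SE 0.17, edgeR adjusted p = 0.048). Its log2 fold change was -0.80 without 129 replicate 1 and -1.06 without 129 replicate 2. It was -0.93 without B6 replicate 1 and -0.97 without B6 replicate 2. Smc4, an ATPase of the condensin core, had 153 and 191 CPM in 129, against 306 and 271 CPM in B6, a log2 fold change of -0.75 (SE 0.20) that did not pass (edgeR adjusted p = 0.073). Ncapg, a condensin I subunit that helps to anchor the ring on DNA, was at 74.6 and 92.6 CPM in 129, against 169 and 142 CPM in B6, with a log2 fold change of -0.90 (SE 0.21, edgeR adjusted p = 0.061). The remaining condensin genes, Smc2 and Ncaph, had smaller differences, with log2 fold changes of -0.44 (95% interval -0.94 to 0.068) and -0.41 (-0.92 to 0.093). In this group edgeR called 2 of 6 lower and DESeq2 called 3, against 1.02% and 5.44% of all genes each tested.

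Centromere and kinetochore genes followed, with 7 of 8 lower in both 129 libraries than in both B6 libraries, against 29.2% of all genes tested. Cenpf (ENSMUSG00000026605, chr1:189640606-189688086, minus strand), a large protein of the outer kinetochore that peaks late in the cycle, had 197 and 280 CPM in 129, against 601 and 498 CPM in B6. It fell by 1.20 on the log2 scale (SE 0.23, edgeR adjusted p = 0.049). Its log2 fold change was -0.97 without 129 replicate 1 and -1.48 without 129 replicate 2. It was -1.07 without B6 replicate 1 and -1.38 without B6 replicate 2. Cenpe, the kinetochore kinesin that carries chromosomes to the spindle equator, had 96.6 and 130 CPM in 129, against 198 and 227 CPM in B6, with a log2 fold change of -0.90 (SE 0.22, edgeR adjusted p = 0.063). Knl1, the scaffold that recruits the Bub proteins, was at 33.6 and 46.1 CPM in 129, against 96.7 and 68.9 CPM in B6, and Cenpa, the histone variant that marks centromeres, at 70.1 and 86.7 CPM in 129, against 118 and 148 CPM in B6. Their log2 fold changes were -1.05 (SE 0.27) and -0.76 (SE 0.22), and neither passed. In this group edgeR called 1 of 8 lower and DESeq2 called 3, namely Cenpf, Cenpe and Knl1, against 1.02% and 5.44% of all genes each tested.

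The NDC80 complex, the 4-subunit rod that grips microtubules, had values on both sides of 0. Ndc80 and Spc25 had log2 fold changes of -0.53 (95% interval -1.10 to 0.034) and -0.61 (-1.17 to -0.054), Nuf2 -0.30 (-0.85 to 0.24) and Spc24 0.18 (-0.55 to 0.91), and none passed. Per length of annotated exon, the subunit genes ran from 6.09 CPM per kb (Nuf2) to 11.2 CPM per kb (Spc25) in 129 replicate 1 and from 6.39 (Nuf2) to 13.8 CPM per kb (Spc25) in 129 replicate 2. In B6 replicate 1 they ran from 7.01 (Spc24) to 18.0 CPM per kb (Spc25), and in B6 replicate 2 from 6.48 (Spc24) to 20.1 CPM per kb (Spc25). Spc25 was thus the most abundant in every library, while the least abundant was Nuf2 in both 129 libraries and Spc24 in both B6 libraries. Differences between the subunits' fold changes were not tested. These levels use all annotated exons of a gene, so genes with long exons that are rarely used come out too low.

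**Figure D4:**
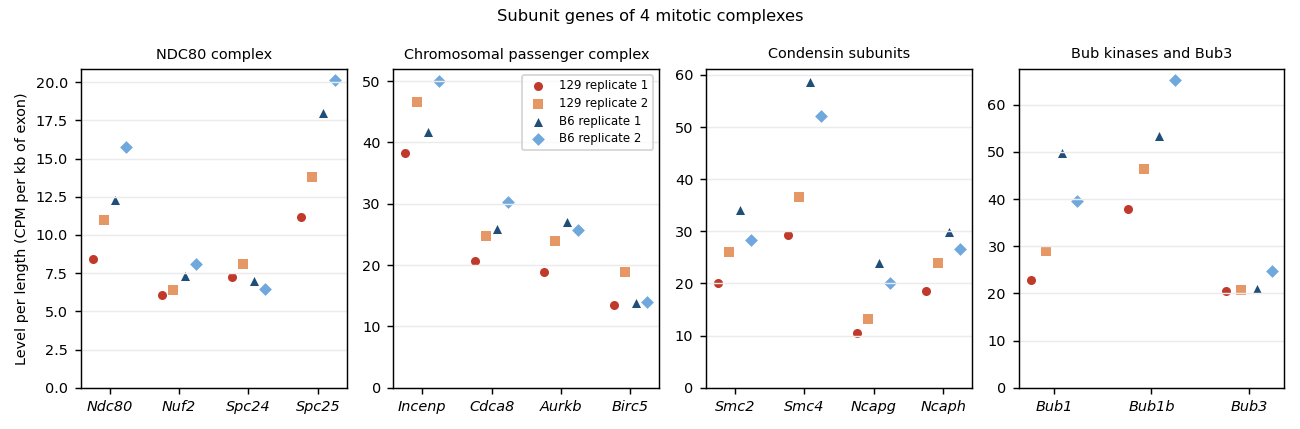
Level per length (CPM per kb of annotated exon) of the subunit genes of the NDC80 complex, the chromosomal passenger complex, condensin and the Bub proteins, with 1 point per library in the order 129 then B6. The Spc24 and Bub3 points lie close together across libraries, while those of Spc25, Smc4 and Bub1 are lower in both 129 libraries than in both B6 libraries.

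Among spindle assembly checkpoint genes Bub1, Bub1b and Bub3 were lower in both 129 libraries than in both B6 libraries, against 29.2% of all genes. Mad2l1 and Ttk overlapped. Bub1, a kinetochore kinase that marks centromeric chromatin, had 99.2 and 126 CPM in 129, against 217 and 173 CPM in B6, with a log2 fold change of -0.79 (SE 0.22, edgeR adjusted p = 0.081). Bub1b, which encodes BUBR1, a part of the inhibitor of the anaphase promoting complex, had 162 and 198 CPM in 129, against 228 and 279 CPM in B6 (-0.49, SE 0.20). Neither passed. Bub3, their shared partner, had 144 and 146 CPM in 129, against 147 and 173 CPM in B6, a narrow separation, and was at -0.15 (95% interval -0.58 to 0.29), the kinase gene Ttk at -0.095 (-0.57 to 0.38) and Mad2l1, which encodes the MAD2 protein that captures CDC20, at -0.034 (-0.61 to 0.54). Mad2l1 overlapped most, with 103 and 145 CPM in 129 and 110 and 144 CPM in B6. Per length, the order was Bub1b, then Bub1, then Bub3 in all 4 libraries, with Bub1b 1.85 and 2.23 times Bub3 in 129, against 2.55 and 2.64 times in B6. edgeR, DESeq2 and limma-voom called 0 of the 5, and 2 were lower at an unadjusted p under 0.05, against 12.2% of all genes.

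The chromosomal passenger complex, in which INCENP, survivin and borealin hold the Aurora B kinase at the centromere, showed small differences. Incenp, its scaffold, had 166 and 202 CPM in 129 and 181 and 217 CPM in B6, with overlapping groups. Cdca8, which encodes borealin, had 107 and 128 CPM in 129, against 134 and 157 CPM in B6, with the groups apart. The log2 fold changes were -0.11 (95% interval -0.58 to 0.36) for Incenp, -0.30 (-0.78 to 0.17) for Cdca8, -0.30 (-0.82 to 0.22) for Aurkb and 0.22 (-0.37 to 0.81) for Birc5, the survivin gene. Birc5 was at 46.2 and 64.2 CPM in 129 and 47.0 and 47.6 CPM in B6, so that its sign rested on 129 replicate 2, without which the log2 fold change was -0.033. Per length, Incenp was highest and Birc5 lowest in every library, at 2.82 and 2.47 times in 129, against 3.02 and 3.58 times in B6. edgeR, DESeq2 and limma-voom called 0 of the 4, and 0 had an unadjusted p under 0.05, against 28.1% of all genes in either direction.

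Genes of mitotic entry had values on both sides of 0. Foxm1, the transcription factor that activates late cell cycle genes, had 188 and 253 CPM in 129, against 143 and 164 CPM in B6. The groups did not overlap, but its log2 fold change of 0.52 (SE 0.21, edgeR adjusted p = 0.17) did not pass. Ccnb2, a B-type cyclin, had 67.6 and 87.1 CPM in 129 and 74.5 and 88.4 CPM in B6, which overlap (-0.075, 95% interval -0.61 to 0.46). The phosphatase genes that activate CDK1 had opposite signs, with Cdc25b at 51.0 and 62.6 CPM in 129, against 42.3 and 49.3 CPM in B6, and Cdc25c at 13.3 and 15.6 CPM in 129, against 21.5 and 31.8 CPM in B6. Their log2 fold changes were 0.31 (-0.25 to 0.87) and -0.88 (-1.69 to -0.070), and neither passed. The kinase genes Aurka and Plk1, whose products mature centrosomes and drive entry, were at -0.52 (SE 0.22) and -0.30 (SE 0.22), with both 129 libraries below both B6 libraries. edgeR, DESeq2 and limma-voom called 0 of these 6 genes. At an unadjusted p under 0.05, 1 was lower (Cdc25c) and 1 higher (Foxm1), against 12.2% and 15.9% of all genes.

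All 4 spindle genes were lower in both 129 libraries than in both B6 libraries, against 29.2% of all genes tested. Kif2c, a kinesin that takes microtubules apart at the centromere, had 84.8 and 104 CPM in 129, against 148 and 152 CPM in B6, with a log2 fold change of -0.67 (SE 0.20, edgeR adjusted p = 0.090). Tpx2, which activates Aurora A on the spindle, had 86.3 and 102 CPM in 129, against 125 and 133 CPM in B6 (-0.45, SE 0.19). Kif11, the motor that pushes the spindle poles apart, was at -0.54 (SE 0.19). Nusap1, a microtubule bundling protein, had 27.4 and 29.8 CPM in 129, against 55.2 and 65.5 CPM in B6, with a log2 fold change of -1.08 (SE 0.24, edgeR adjusted p = 0.056). Nusap1 overlaps Oip5 on the opposite strand. Cdc25b, Cdc25c, Ncapg, Cdca8, Bub3, Cdc20, Ube2c, Kif20a and Prc1 likewise overlap a protein-coding gene on the opposite strand, and Foxm1 overlaps Tex52 on the same strand. Whether counting used strand is unknown here, so the values of these genes are less certain. edgeR and limma-voom called 0 of the 4, and DESeq2 called Nusap1 lower, against 5.44% of the genes it tested. At an unadjusted p under 0.05, 3 were lower, against 12.2% of all genes.

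Among the genes that end mitosis, Cdc20 had the largest difference of the 4. Cdc20, the activator of the anaphase promoting complex, had 97.7 and 118 CPM in 129, against 207 and 196 CPM in B6. Its groups lay well apart, with a log2 fold change of -0.90 (SE 0.19) that narrowly missed the threshold (edgeR adjusted p = 0.054), and DESeq2 called it (adjusted p = 0.011). Per length it was the most abundant of all 42 genes in every library, at 52.3 and 63.1 CPM per kb in 129, against 111 and 105 CPM per kb in B6. Its partner on the opposite strand is Elovl1. Espl1, which encodes separase, had 287 and 356 CPM in 129 and 317 and 380 CPM in B6, with overlapping groups (-0.11, 95% interval -0.58 to 0.35). Pttg1, which encodes securin, was at -0.16 (-0.77 to 0.46) and Ube2c, the ubiquitin-conjugating enzyme of the complex, at -0.28 (-0.85 to 0.28). edgeR and limma-voom called 0 of the 4, and 1 was lower at an unadjusted p under 0.05, against 12.2% of all genes.

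Of the central spindle and cytokinesis genes, Prc1, Anln and Ect2 were lower in both 129 libraries than in both B6 libraries. Such an order held in 29.2% of all genes tested, and Kif20a and Kif23 overlapped. Kif20a, a kinesin of the central spindle, had 195 and 267 CPM in 129 and 252 and 283 CPM in B6 (-0.21, 95% interval -0.71 to 0.29). Ect2, which activates RHOA at the cleavage furrow, had 85.4 and 105 CPM in 129, against 143 and 147 CPM in B6 (-0.61, SE 0.20, edgeR adjusted p = 0.11). Prc1, which bundles the central spindle, had 81.4 and 96.9 CPM in 129, against 184 and 133 CPM in B6 (-0.83, SE 0.23, edgeR adjusted p = 0.081). The contractile ring scaffold Anln was at -0.53 (SE 0.22) and the kinesin Kif23, partner of the RHOA regulator RACGAP1, at -0.19 (SE 0.24). edgeR and limma-voom called 0 of the 5, and DESeq2 called Prc1 lower, against 5.44% of the genes it tested. At an unadjusted p under 0.05, 3 were lower, against 12.2% of all genes.

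**Figure D5:**
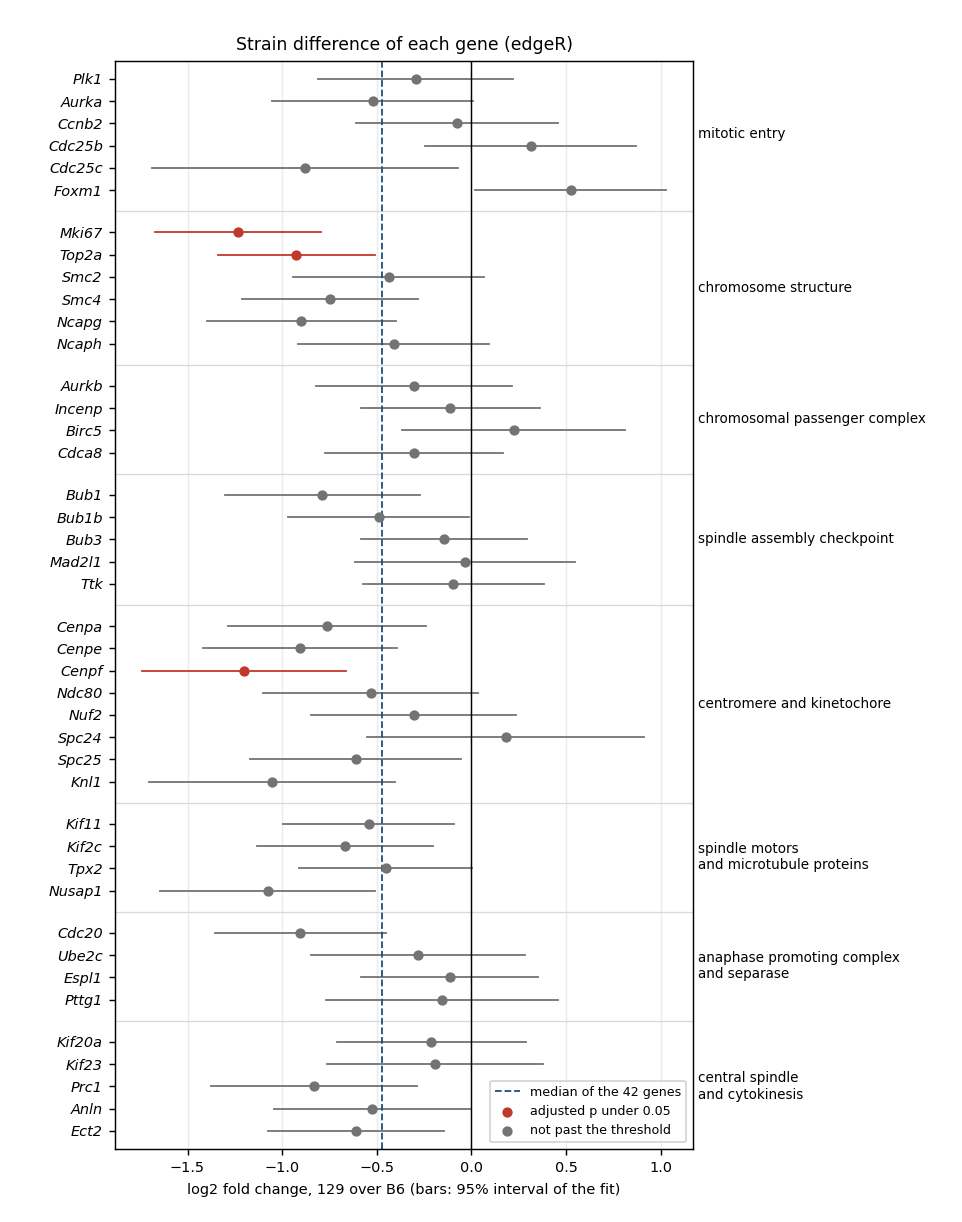
Log2 fold change of 129 over B6 for each of the 42 genes with its 95% interval from the edgeR fit, red where the adjusted p is under 0.05. The points of 38 genes lie left of 0, the dashed line marks the median of all 42 at -0.47, and Mki67, Top2a and Cenpf are the 3 red points.

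The log2 fold change varied with transcript composition. Across the 42 genes, Spearman's rho of the log2 fold change with the GC content of the longest transcript was 0.45, and with exon length it was -0.37. Knl1, Ncapg, Cenpf and Cenpe were among the long members of low GC content. Kif11, Nuf2 and Mad2l1 were too, with log2 fold changes of -0.54, -0.30 and -0.034. Over 15999 genes tested that have an annotation the same correlations were 0.19 and -0.07. Between the libraries of a strain, rho of GC content with the log2 ratio of both replicates (1 over 2), over all genes, was 0.10 in 129 and -0.20 in B6, so GC-linked shifts were also present within a strain. These are descriptions across genes of the same 4 libraries, and genes are not independent replicates.

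Beyond the 42, 119 other mitotic genes in 8 lists had a median of the same sign and smaller size. Their median log2 fold change was -0.24, with 97 of them below 0, and both 129 libraries lay below both B6 libraries in 62 (52.1%, against 29.2% of all genes tested). edgeR called 2 lower and 1 higher, against 1.02% and 1.84% of all genes, and DESeq2 called 16 lower and 1 higher, against 5.44% and 9.56% of the genes it tested. Haus4, a subunit of the augmin complex that branches spindle microtubules, had 47.3 and 45.9 CPM in 129, against 106 and 109 CPM in B6, and fell by 1.20 on the log2 scale (SE 0.20, edgeR adjusted p = 0.038). Ncapg2, a condensin II subunit, had 69.5 and 87.8 CPM in 129, against 160 and 171 CPM in B6 (log2 fold change -1.07, SE 0.20, edgeR adjusted p = 0.049). Sept9, a septin of the cytokinetic furrow that other cell types express too, rose, with 177 and 146 CPM in 129, against 54.3 and 76.9 CPM in B6 (95% interval of the log2 fold change 0.73 to 1.87, edgeR adjusted p = 0.047).

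The lists with no call are given by their gene of lowest p. Among 19 inner kinetochore genes (median -0.22) it was Hjurp, the chaperone that loads CENP-A, at -0.88 (SE 0.21), and among 15 outer kinetochore and checkpoint genes (median -0.40) it was Spdl1, which brings dynein to kinetochores, at -0.99 (SE 0.26). Among 17 genes of the anaphase promoting complex (median -0.15) it was Ube2s, which extends ubiquitin chains, at -0.73 (SE 0.22). Among 13 cohesin genes (median -0.26) it was Sgo2a, a protector of centromeric cohesin, at -1.11 (SE 0.23), and among 17 other mitotic entry genes (median -0.34) it was Ensa, an inhibitor of the phosphatase that opposes CDK1, at -0.85 (SE 0.18). None of these 5 passed in edgeR. At an unadjusted p under 0.05, the genes lower in 129 numbered 5, 4, 3, 2 and 5 in these lists, against 12.2% of all genes. In the inner kinetochore list 1 gene, Cenpm, was higher, against 15.9% of all genes. DESeq2 called 4, 2, 0, 1 and 3 lower, against 5.44% of the genes it tested.

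Lists of neighbouring steps had medians below 0 of smaller size. The 40 DNA replication genes had a median log2 fold change of -0.34, with 34 below 0 and both 129 libraries below both B6 libraries in 19 (47.5%), against 49.1% and 29.2% of all genes tested. The 13 cyclins and cyclin-dependent kinases had a median of -0.18, with 8 below 0 and 5 above. Their summed level was higher in both 129 libraries, at 2076 and 2282 CPM, against 1715 and 1875 CPM in B6. The largest part of this sum in every library was Ccnd2, with 835 and 1034 CPM in 129, against 473 and 550 CPM in B6. Cdk1, Ccnb1 and Ccna2, with log2 fold changes of -0.18, -0.70 and -0.47, were also counted among the other mitotic entry genes. edgeR called 0 of either list, with 10 and 5 at an unadjusted p under 0.05, against 28.1% of all genes. DESeq2 called 1 replication gene lower and 1 cyclin gene, Ccnd2, higher, against 5.44% and 9.56% of the genes it tested. The ratio of the mitotic sum to the replication sum was 0.85 and 0.91 in 129, against 1.09 and 0.97 in B6, and the groups did not overlap. A difference between these lists and the mitotic genes was not tested.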

How the data were processed

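RNA-seq counts per gene were deposited by the authors for 4 libraries of GS cells, 2 of strain 129 and 2 of strain B6. The submitters' processing notes list HISAT2 2.2.1, HTSeq 0.13.5, DESeq2 1.30.1, cutadapt 3.4, bcl2fastq 2.20 and the mm10 build. The sources used here give no annotation release and no strand setting for the counting. The mm10 reference is of strain C57BL/6, so 129 reads that carry strain variants may align less often, which was not tested.

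From the deposited counts, genes were filtered with filterByExpr, scaled by TMM and tested over 16005 genes, 129 over B6. The test was that of edgeR 4.0.16 (quasi-likelihood with the legacy form switched off, robust, Benjamini-Hochberg, threshold 0.05) in R 4.3.3. CPM used TMM-scaled totals. DESeq2 1.42.0, limma-voom 3.58.1, other scalings and filters, a replicate block and left-out libraries were alternatives. The procedure was tested on simulated data. These had less spread between replicates than the libraries here, so they do not show how it performs at the spread of these libraries. The libraries of each strain differed by more than counting noise, so none was counted as a duplicate. Exon lengths and positions came from GENCODE M21, which held 99.85% of the identifiers, and promoters from RefSeq (GRCm38.p6).

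The members and lists were chosen with earlier results of these data known. All 42 members are named, with values per library for called members and the 2 most abundant per length in each of 8 role groups. Of the other lists, genes past the threshold are named, or the gene of lowest p. Values of some further members and markers were added after they were seen.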

Additional observations from a re-analysis of the deposited data

How the results depend on the processing

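The number of members called lower in 129, which was 3, depended on the processing, and 0 were called higher under any setting tried. It was 5 with upper-quartile factors, 9 with the DESeq2 test, 1 with limma-voom and 1 without the filter on low counts. It was 0 among genes that averaged 10 CPM or more, where 18 members had an unadjusted p under 0.05. The legacy form of the edgeR test, the default of the version used, was an alternative chosen after seeing the data. It called 1 member, Mki67, and Top2a (edgeR adjusted p = 0.053) and Cenpf (0.051) did not pass. Over all genes, edgeR called 163 lower, against 324 with upper-quartile factors and 95 without the filter. The legacy form called 138 lower, the minimum of 10 CPM 20, DESeq2 916 and limma-voom 97. Library totals gave 306, a replicate block 221 and DESeq2 size factors 196, with 3 members called in each. With each library left out in turn, the median log2 fold change of the members ranged from -0.64 to -0.32. The ratio of summed CPM, left out likewise after seeing the data, ranged from 0.605 to 0.759. Deviations from the strain mean were nearly uncorrelated over genes between libraries of the same replicate number (correlation -0.012). With 2 libraries a strain this cannot show whether they shared an animal, culture or day. With a replicate block 3 members were called. The log2 fold change was below 0 in 32 members and above 0 in 3 under every setting tried. Mad2l1 changed sign with library totals (0.016) and with the minimum of 10 CPM (0.0025). With each library left out, the log2 fold change ranged from -0.30 to 0.20 in Mad2l1, from -0.27 to 0.10 in Ccnb2, from -0.26 to 0.028 in Incenp, from -0.033 to 0.44 in Birc5, from -0.23 to 0.033 in Ttk, from -0.28 to 0.037 in Espl1 and from -0.50 to 0.065 in Kif23. With 2 libraries a group, replicate spread limits these tests more than depth.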
